A study of Mus musculus with 18 samples.

Results

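The genes described are 36 subunits of the ion channels that open when a neurotransmitter binds. They were chosen as the rows of the count table that map to a list of mouse symbols, and they comprise 12 GABA-A receptor subunits, 4 AMPA receptor subunits, 7 NMDA receptor subunits, 5 kainate receptor subunits and 8 nicotinic acetylcholine receptor subunits. All 36 were found among the 27179 genes of the table, and all 36 were among the 15863 genes that passed the filter on low counts. The other subunits of these families were not analysed here.

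RNA sequencing was done on half-brains of 18 wild-type mice bred in house from C57BL/6J, 10 males and 8 females, perfused before dissection. From 4 months of age they were gavaged daily for 14 days. The 5 vehicle mice (2 males, 3 females) received the pH-adjusted sodium hydroxide solution without the herbicide. Glyphosate was given at 125 mg/kg to 5 mice (3 males, 2 females), at 250 mg/kg to 4 (3 males, 1 female) and at 500 mg/kg to 4 (2 males, 2 females). Mice were caged by sex and dose, so cage and dose cannot be told apart. Mice are named by their labels, from G1 to G90.

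GABA-A and nicotinic receptors are rings of 5 subunits, whereas AMPA, NMDA and kainate receptors are rings of 4. GABA-A channels pass chloride and mostly inhibit, and the other classes pass cations and excite. Which subunits join decides where a receptor sits, how fast it closes and how much calcium it admits, and many subunits are made in particular brain regions only. AMPA here is the synthetic amino acid after which a receptor is named, and not aminomethylphosphonic acid, the breakdown product of glyphosate that shares the abbreviation.

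Total counts ran from 3948096 to 11732885 per mouse. The 6 general neuron markers were present in every library, the lowest at 87.5 CPM (counts relative to library size, scaled by the TMM method of edgeR). Female vehicle mouse G9 and female 500 mg/kg mouse G4 stood apart from the rest. Their median correlation with the other libraries was 0.942 and 0.943, against 0.959 to 0.975 for the other 16. The mean log2(CPM + 1) of 8 markers of excitatory neurons of cortex and hippocampus was 3.92 in G9 and 3.84 in G4, against 6.03 to 7.96 in the other mice. Slopes of the subunits whose level is given for every mouse below are therefore given with and without these mice. In bulk tissue, fewer cells of a type and less RNA per cell cannot be told apart.

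Levels are compared between genes per kilobase (kb) of exon, and the vehicle mice give the baseline (mean ± SD, n = 5 throughout). The length used is the union of all annotated exons of a gene, whichever transcripts the brain makes. The order of genes therefore depends on this length. Among GABA-A subunits, Gabrb2 (85.5 ± 19.7 CPM per kb) and Gabra6 (82.2 ± 41.0 CPM per kb) had the highest means, and their ranges overlapped. Gabrb2 is a broadly used beta subunit, and Gabra6 is an alpha subunit made by cerebellar granule cells. Gabra3, Gabrd and Gabra4 followed at 25.6 ± 7.01, 19.9 ± 3.49 and 18.2 ± 9.79 CPM per kb, again with overlapping ranges. Gabrq, Gabre and Gabrg3, which encode the theta, epsilon and gamma 3 subunits, were the lowest, between 0.287 and 0.424 CPM per kb. Their ranges overlapped each other but lay below that of Gabrb1, the next gene up at 2.33 ± 0.42 CPM per kb.

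For the glutamate receptors, Gria1 (71.2 ± 10.04 CPM per kb) lay above Gria2 (36.3 ± 13.2), Gria4 (32.1 ± 4.66) and Gria3 (15.1 ± 6.01 CPM per kb). Before division by exon length (6043 bases for Gria1, 15548 for Gria2), the mean of Gria2 was the higher, at 564 against 430 CPM. Grin1, the subunit that every NMDA receptor needs, was the highest of its class at 33.7 ± 8.17 CPM per kb. Grin2c, a cerebellar subunit, had 21.6 ± 4.36 CPM per kb, and Grin2b and Grin2a, the main forebrain partners of Grin1, had 9.54 ± 5.06 and 6.84 ± 2.64 CPM per kb. Grik5 (18.6 ± 6.52) and Grik3 (14.0 ± 5.39 CPM per kb) led the kainate class. Among nicotinic subunits, Chrnb2 and Chrna4, which together form the most common high-affinity nicotinic receptor of the brain, had 12.4 ± 1.13 and 10.5 ± 2.96 CPM per kb with overlapping ranges. Chrna7, which forms receptors of its own, had 2.71 ± 0.74 CPM per kb, and the other 5 nicotinic subunits lay between 0.33 and 0.856 CPM per kb.

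**Figure D1:**
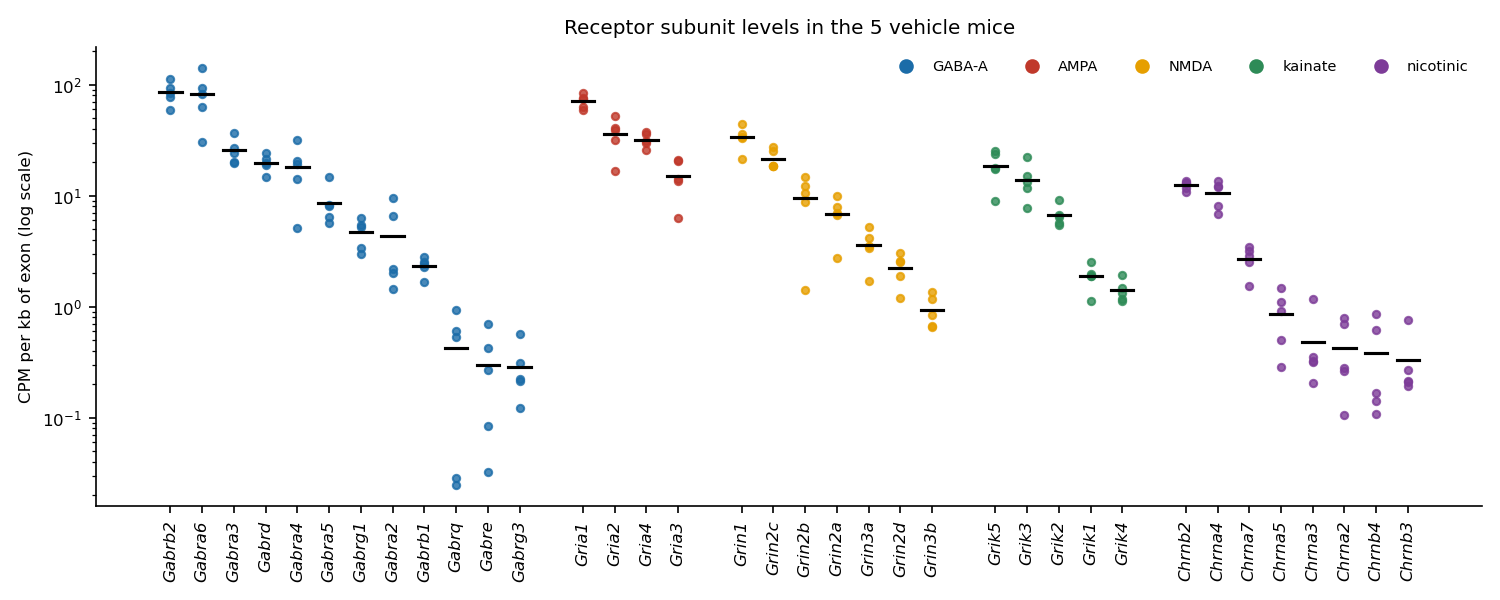
Levels of the 36 receptor subunits in the 5 vehicle mice, in CPM per kb of exon on a log scale, ordered by mean within each receptor class. Points are mice and bars are means, and the means run from 0.287 for Gabrg3 to 85.5 for Gabrb2.

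The first question was whether any receptor subunit changed with the amount of glyphosate given. A straight line in dose was fitted for each gene with sex as a covariate (edgeR quasi-likelihood test), and each slope is the log2 change per 500 mg/kg with its standard error (SE). None of the 36 subunits passed an adjusted p of 0.05, in a fit in which 0.29% of all tested genes did. Unadjusted p was under 0.05 for 10 of the 36, of which 8 had positive and 2 negative slopes, where 13.2% of all tested genes had such a p. Without G4 and G9 it was under 0.05 for 7 of the 36, where 11.7% of all tested genes had such a p. DESeq2 called 1 of the 33 subunits for which it gave an adjusted p (1.77% of genes called), and limma-voom called 1 of 36 (0.315% of genes called). Both of these calls were of Gabrq.

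By class, 7 of 12 GABA-A slopes were positive, with a median of 0.0064, beside 0.0085 over all tested genes. For AMPA subunits 1 of 4 slopes was positive (median -0.31), for NMDA subunits 3 of 7 (median -0.14) and for kainate subunits 2 of 5 (median -0.15). For nicotinic subunits 7 of 8 slopes were positive, with a median of 0.33. Without G4 and G9 the median of the NMDA slopes was 0.18 and that of the kainate slopes 0.03, so both changed sign. The AMPA median was then -0.24 and the nicotinic median 0.19. The largest nicotinic slope, that of Chrna2, was 1.21 with all mice and 0.14 without G4 and G9. That of Chrna5 changed sign from 0.21 to -0.50, and that of Chrna3 rose from 0.15 to 0.52. Leaving out each mouse in turn moved the AMPA median between -0.40 and -0.15, the NMDA median between -0.27 and 0.11 and the kainate median between -0.37 and 0.018. With the excitatory neuron marker level as a covariate the NMDA median was 0.39 and the kainate median 0.067.

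**Figure D2:**
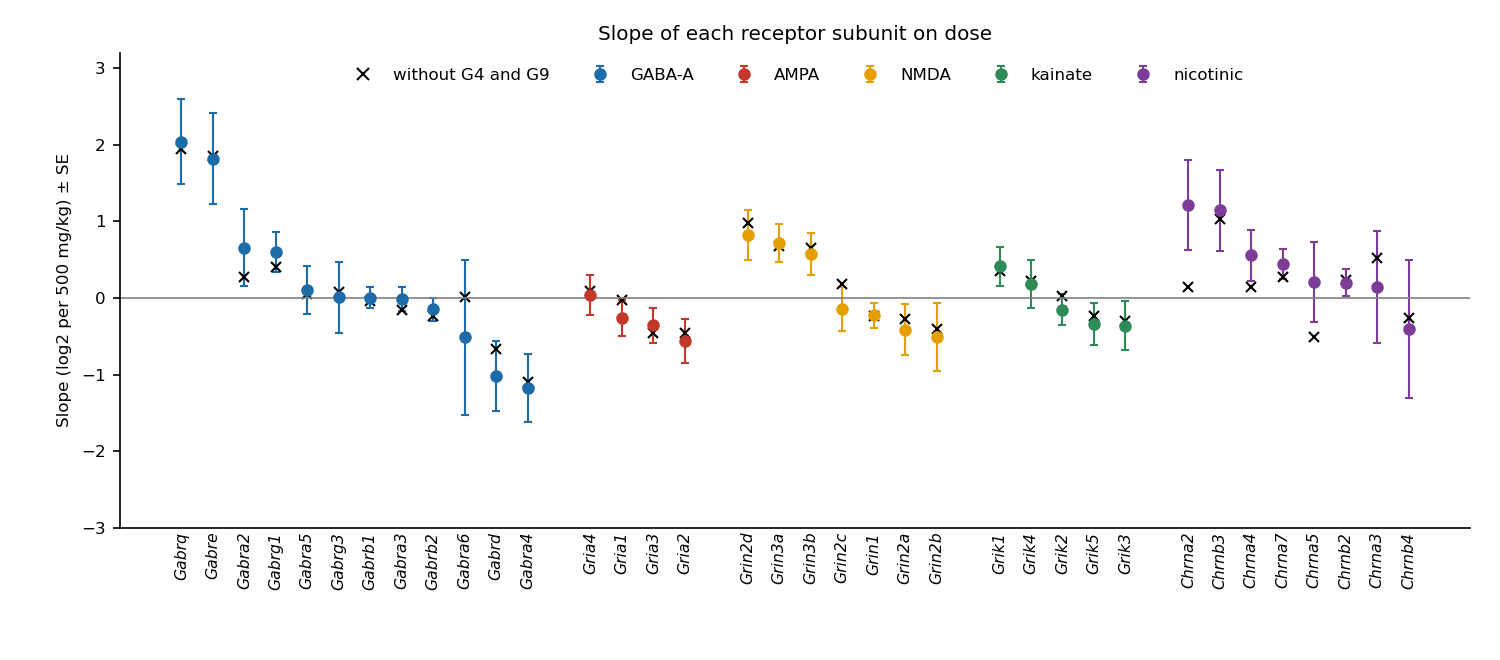
Slope on dose of each receptor subunit (log2 change per 500 mg/kg, points, with SE as bars) by receptor class, and the slope fitted without mice G4 and G9 (crosses). Gabrq (2.04) and Gabre (1.82) have the largest slopes and Gabra4 (-1.17) and Gabrd (-1.02) the lowest, and none passes an adjusted p of 0.05 in edgeR.

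The largest slopes belonged to the neighbouring X-linked genes Gabrq (GRCm38 chrX:72825163-72842607, plus strand) and Gabre (chrX:72256926-72274828, minus strand). Their theta and epsilon subunits are known from hypothalamus and from the monoamine nuclei of the brainstem rather than from cortex. Gabra3, on the minus strand at chrX:72432676-72656919, lies between them. The 300 bases of each gene in a table of RefSeq promoters (GRCm38.p6) are shown because both genes were highest in G4, G79 and G87. Next came 500 mg/kg mouse G90 for Gabrq, but vehicle mouse G18 for Gabre. The start that this table uses lies inside the outer bounds of the gene given above. Capitals mark matches to the GC box GGGCGG on either strand.

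Gabrq (chrX:72824928-72825227, plus strand): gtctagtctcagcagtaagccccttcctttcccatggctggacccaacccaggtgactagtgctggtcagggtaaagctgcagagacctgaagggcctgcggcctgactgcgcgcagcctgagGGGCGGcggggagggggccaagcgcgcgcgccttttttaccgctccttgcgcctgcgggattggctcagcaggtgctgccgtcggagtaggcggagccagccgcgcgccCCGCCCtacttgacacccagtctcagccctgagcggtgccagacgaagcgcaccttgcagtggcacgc

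Gabre (chrX:72274672-72274971, minus strand): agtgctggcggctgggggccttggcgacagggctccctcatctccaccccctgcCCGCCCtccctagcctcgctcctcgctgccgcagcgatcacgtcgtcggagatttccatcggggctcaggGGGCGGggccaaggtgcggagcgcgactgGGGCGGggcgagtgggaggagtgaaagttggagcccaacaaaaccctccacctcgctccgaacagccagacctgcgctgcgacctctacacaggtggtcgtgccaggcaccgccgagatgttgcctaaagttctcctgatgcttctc

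Both windows are rich in CpG, with 23 CpG pairs in Gabrq and 24 in Gabre against a median of 7 over all 32851 promoters of the table. GC boxes were found 2 times in the Gabrq window and 3 times in the Gabre window, and 35.7% of all promoters hold at least 1. The TATA box TATAAA, the E box CACGTG and the cAMP response element TGACGTCA were also searched on both strands. They are in 13.6%, 7.15% and 1.79% of all promoters, and these letters are not in either window.

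Gabrq stood at 0.15 (G1), 2.84 (G5), 3.21 (G9), 0.13 (G15) and 4.99 CPM (G18) in the vehicle mice. With 125 mg/kg it was 1.73 (G25), 0.56 (G29), 2.25 (G34), 1.46 (G40) and 1.73 CPM (G45), and with 250 mg/kg 4.19 (G49), 1.69 (G64), 2.46 (G66) and 4.78 CPM (G71). In the 500 mg/kg mice it was 11.95 (G4), 7.37 (G79), 6.04 (G87) and 5.86 CPM (G90). All 4 of the highest-dose mice lay above all other mice, whereas the 125 and 250 mg/kg mice lay within the vehicle range. The slope was 2.04 ± 0.56 (SE), with an edgeR adjusted p of 0.133. The adjusted p was 0.0254 in DESeq2 and 0.0306 in limma-voom, and over the 27 alternatives that gave one it ran from 0.0254 to 0.9999.

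Gabre was 0.15 (G1), 1.26 (G5), 1.99 (G9), 0.40 (G15) and 3.28 CPM (G18) in vehicle mice and 5.27 (G4), 4.69 (G79), 3.68 (G87) and 2.04 CPM (G90) at 500 mg/kg. The ranges of these groups overlapped through G18 and G90. At 125 mg/kg Gabre was 1.04 (G25), 0.093 (G29), 0.32 (G34), 0.58 (G40) and 1.403 CPM (G45), and at 250 mg/kg 1.23 (G49), 1.69 (G64), 0.49 (G66) and 2.11 CPM (G71), all within the vehicle range but for G29. Its slope was 1.82 ± 0.59 (SE, edgeR adjusted p = 0.199), and DESeq2 gave no adjusted p. Both genes are thinly counted. At least 10 reads of Gabre were found in 3 of 5 vehicle mice, 1 of 5 at 125 mg/kg, 2 of 4 at 250 mg/kg and 4 of 4 at 500 mg/kg. For Gabrq this held in 3, 4, 4 and 4 mice of these groups. The slopes without G4 and G9 were 1.94 ± 0.65 for Gabrq and 1.85 ± 0.69 for Gabre.

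Markers of midbrain dopamine neurons and of hypothalamic neurons also had positive slopes on dose. Of 8 midbrain dopamine neuron markers 6 were tested, all 6 slopes were positive, 5 had an unadjusted p under 0.05 and 2 passed the adjusted threshold in edgeR. Their summed level was 34.7 to 165 CPM in vehicle mice, 32.1 to 116 CPM and 64.8 to 120 CPM in the lower dose groups, and 120 to 445 CPM in the highest. Of the defining markers, Slc6a3 had no count in 4 mice and Pitx3 in 5. Of 9 hypothalamic neuron markers 8 were tested, all 8 slopes were positive, 7 had an unadjusted p under 0.05 and 1 was called. The summed level of these was 4.63 to 10.8 CPM in vehicle mice, 5.53 to 64.4 CPM and 9.62 to 114 CPM in the lower dose groups, and 14.8 to 138 CPM in the highest, with Oxt at 0 in 9 mice and Sim1 in 7. Without G4 and G9 edgeR called 1 of the dopamine neuron markers and 0 of the hypothalamic ones, of which 3 and 8 had an unadjusted p under 0.05. Thalamic markers had 5 of 8 negative slopes (median -0.22) and medial habenula markers 3 of 4 (median -0.79). The thalamic sum was 91.3 to 334 CPM in vehicle mice, 114 to 2121 CPM at 125 mg/kg and 276 to 550 CPM at 500 mg/kg. Hindbrain markers summed to 2.77 to 138 CPM in vehicle mice and 19.2 to 116 CPM at 500 mg/kg. Oligodendrocyte markers summed to 3909 to 6919 CPM in vehicle mice and 5674 to 15851 CPM at 500 mg/kg. Of the 18 mice, the 4 with the most Gabrq had the highest mean log2(CPM + 1) of the dopamine neuron markers. By summed level, vehicle mouse G18 (165.2 CPM) and 250 mg/kg mouse G49 (120.4 CPM) lay above 500 mg/kg mouse G79 (120.2 CPM). The part of regional tissue content in the result was not tested.

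The alpha 4 and delta subunits, which form receptors outside synapses in thalamus and dentate gyrus, had negative slopes. Gabra4 (chr5:71569734-71658308) was chosen for description after its values were seen. It was 195 (G1), 117 (G5), 31.3 (G9), 125 (G15) and 86.6 CPM (G18) in vehicle mice, and 23.6 (G4), 63.2 (G79), 92.8 (G87) and 86.8 CPM (G90) at 500 mg/kg. Its levels at 125 mg/kg were 99.6 (G25), 202 (G29), 180 (G34), 144 (G40) and 331 CPM (G45), and at 250 mg/kg 77.2 (G49), 113 (G64), 104 (G66) and 133 CPM (G71). All 5 mice at 125 mg/kg lay above all 4 at 500 mg/kg, though how many of all genes separate these groups was not counted. The highest value was that of G45. The 8 thalamic markers were also highest in G45, with a sum of 2121 CPM, against 91.3 to 550 CPM in the other mice, and their part in the Gabra4 levels was not tested. The slope was -1.17 ± 0.45 (SE, edgeR adjusted p = 0.269), and -1.10 ± 0.36 without G4 and G9. Gabrd was 57.2 CPM (42.7 to 69.9, n = 5) in vehicle mice and 29.2 CPM (2.699 to 53.6, n = 4) at 500 mg/kg, where G4 had the lowest value of all mice. Its slope of -1.02 did not pass the threshold, and was -0.67 without G4 and G9. The end of Gabra4 overlaps that of Gabrb1 by 388 bases on the opposite strand, and the strand setting of the counting is not given in the sources used here.

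Gabra6 (chr11:42306437-42321072), the granule cell subunit, varied more than any other member. It was 76.4 (G1), 205 (G5), 353 (G9), 232 (G15) and 157 CPM (G18) in vehicle mice, 85.0 (G25), 0.093 (G29), 81.9 (G34), 63.6 (G40) and 10.9 CPM (G45) at 125 mg/kg, 403 (G49), 15.1 (G64), 127 (G66) and 48.0 CPM (G71) at 250 mg/kg, and 2.06 (G4), 283 (G79), 11.3 (G87) and 139 CPM (G90) at 500 mg/kg. The 250 and 500 mg/kg groups held both high and low mice, the 125 mg/kg mice all lay below 4 of the 5 vehicle mice, and G29 had 1 count. The slope was -0.51 ± 1.01 (SE, edgeR adjusted p = 0.868), and 0.015 without G4 and G9, where it changed sign. The 7 granule cell markers had a summed level of 936 to 3059 CPM in vehicle mice, and of 127 to 876, 286 to 3131 and 278 to 2160 CPM in the groups of rising dose. The mice with the highest and lowest summed marker level, G49 and G29, also held the highest and the lowest level of Gabra6. By mean log2(CPM + 1) of the markers, G9 (8.61) lay just above G49 (8.60).

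Among the remaining GABA-A subunits, Gabra3, Gabrb1 and Gabrb2 were the steadiest. Gabrb1 had group means between 32.3 and 33.5 CPM, with SDs from 2.47 to 8.32, and Gabrb2 between 516 and 616 CPM. Gabra5, an extrasynaptic subunit of hippocampus, had group means of 25.6 ± 10.8, 36.1 ± 8.92, 33.0 ± 17.5 and 30.6 ± 5.25 CPM from vehicle to the highest dose. Gabrg1, a gamma subunit found in glia and in some subcortical neurons, had 36.6 ± 11.2 CPM in vehicle mice and 60.2 ± 19.3 CPM at 500 mg/kg, where G4 had the highest level at 88.8 CPM. Its slope was 0.60, and 0.40 without G4 and G9.

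AMPA receptors carry fast excitatory transmission, and Gria2 encodes the subunit whose edited form keeps calcium out. Gria2 (chr3:80681450-80804227) was 817 (G1), 639 (G5), 260 (G9), 611 (G15) and 495 CPM (G18) in vehicle mice. At 125 mg/kg it was 595 (G25), 715 (G29), 663 (G34), 814 (G40) and 365 CPM (G45), at 250 mg/kg 443 (G49), 748 (G64), 637 (G66) and 729 CPM (G71), and at 500 mg/kg 191 (G4), 455 (G79), 450 (G87) and 515 CPM (G90). The lowest levels were those of G4 and G9, and the vehicle and 500 mg/kg ranges overlapped. The slope was -0.56 ± 0.29 (SE, edgeR adjusted p = 0.413), and -0.46 ± 0.22 without these mice.

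Gria3 (chrX:41400819-41678601) was likewise lowest in G9 (61.7 CPM). The other vehicle mice had 207 (G1), 201 (G5), 135 (G15) and 140 CPM (G18), and the 500 mg/kg mice 94.96 (G4), 112 (G79), 140 (G87) and 134 CPM (G90). At 125 mg/kg it was 131 (G25), 181 (G29), 168 (G34), 221 (G40) and 109 CPM (G45), and at 250 mg/kg 99.4 (G49), 199 (G64), 192 (G66) and 174 CPM (G71). The ranges of all groups overlapped, with a slope of -0.35 ± 0.23 (SE, edgeR adjusted p = 0.530), and of -0.46 without G4 and G9. With the excitatory neuron marker level as a covariate the slope was 0.049, of the other sign. Gria1 and Gria4 had slopes of -0.26 and 0.044, and of -0.030 and 0.091 without G4 and G9.

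Of the NMDA subunits, those with positive slopes were Grin3a, Grin2d and Grin3b. Grin3a (chr4:49661611-49846023) encodes a glycine-binding subunit that lowers the calcium a receptor admits. It was 20.8 (G1), 43.4 (G5), 63.9 (G9), 50.8 (G15) and 41.8 CPM (G18) in vehicle mice and 91.8 (G4), 66.4 (G79), 73.6 (G87) and 58.2 CPM (G90) at 500 mg/kg. All dosed mice of the top group were above every vehicle mouse except G9. The 125 mg/kg mice had 45.5 (G25), 28.8 (G29), 53.8 (G34), 37.9 (G40) and 75.9 CPM (G45), and at 250 mg/kg 46.4 (G49), 43.9 (G64), 52.7 (G66) and 59.8 CPM (G71). The slope was 0.71 ± 0.25 (SE, edgeR adjusted p = 0.221) and 0.68 ± 0.26 without G4 and G9.

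Grin2d (chr7:45831883-45871194), a subunit of slowly closing receptors found in midbrain, diencephalon and interneurons, was 8.01 (G1), 12.5 (G5), 20.4 (G9), 16.7 (G15) and 17.0 CPM (G18) in vehicle mice. The 500 mg/kg mice had 23.3 (G4), 32.0 (G79), 29.6 (G87) and 17.6 CPM (G90). These groups overlapped only through G9 and G90. The 125 mg/kg mice had 22.8 (G25), 6.97 (G29), 12.4 (G34), 8.48 (G40) and 28.4 CPM (G45), and the 250 mg/kg mice 15.3 (G49), 16.6 (G64), 14.6 (G66) and 25.9 CPM (G71). The slope was 0.82 ± 0.32 (SE, edgeR adjusted p = 0.285) and 0.98 ± 0.37 without G4 and G9.

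Grin1 (chr2:25291177-25319187) varied least of the 36 genes within groups. It was 428 (G1), 329 (G5), 207 (G9), 351 (G15) and 319 CPM (G18) in vehicle mice and 234 (G4), 306 (G79), 344 (G87) and 283 CPM (G90) at 500 mg/kg. At 125 mg/kg it was 400.4 (G25), 394 (G29), 309 (G34), 345 (G40) and 318 CPM (G45), and at 250 mg/kg 276 (G49), 307 (G64), 326 (G66) and 321 CPM (G71). These groups and the highest dose all lay within the vehicle range. The slope was -0.23 ± 0.16 (SE, edgeR adjusted p = 0.567) and -0.24 without G4 and G9, and it was of the other sign with the excitatory marker level (0.0087) or the tag number (0.025) in the fit. Grin2b and Grin2a were lowest in G9 (34.9 and 48.8 CPM) and G4 (58.3 and 39.96 CPM). In the other 16 mice they ran from 123 to 385 CPM and from 76.0 to 201 CPM. Grin2c had 109 ± 22.0 CPM in vehicle mice, and G4 had the lowest level at 40.5 CPM.

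Kainate receptors act on both sides of the synapse. Grik1, with its neighbours in function Grik2 and Grik3, forms receptors of low affinity, while Grik4 and Grik5 raise the affinity and need one of the former. Grik1 (chr16:87895901-88290863) was 7.55 (G1), 16.8 (G5), 13.3 (G9), 12.7 (G15) and 12.6 CPM (G18) in vehicle mice and 17.99 (G4), 15.8 (G79), 14.8 (G87) and 12.1 CPM (G90) at 500 mg/kg, with overlapping ranges. It was 8.17 (G25), 5.67 (G29), 9.96 (G34), 12.1 (G40) and 14.7 CPM (G45) at 125 mg/kg and 15.04 (G49), 18.8 (G64), 16.2 (G66) and 16.3 CPM (G71) at 250 mg/kg. The lowest mouse at 250 mg/kg (15.04 CPM) lay just above the highest at 125 mg/kg (14.7 CPM). How many of all genes separate these groups was not counted. The slope was 0.41 ± 0.26 (SE, edgeR adjusted p = 0.506) and 0.35 without G4 and G9.

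Grik5 (chr7:25009849-25075694) was 131 (G1), 90.9 (G5), 46.2 (G9), 124 (G15) and 89.9 CPM (G18) in vehicle mice and 40.9 (G4), 85.0 (G79), 116 (G87) and 72.7 CPM (G90) at 500 mg/kg. Again G9 and G4 were lowest, and the ranges overlapped at every dose. The 125 mg/kg mice had 121 (G25), 120 (G29), 73.8 (G34), 86.0 (G40) and 73.9 CPM (G45), and the 250 mg/kg mice 61.4 (G49), 106 (G64), 78.4 (G66) and 94.5 CPM (G71). The slope was -0.34 ± 0.27 (SE, edgeR adjusted p = 0.632), and -0.24 without G4 and G9 and 0.067 with the excitatory marker level as a covariate. Grik2, Grik3 and Grik4 had slopes of -0.15, -0.36 and 0.18, and of 0.033, -0.30 and 0.22 without G4 and G9.

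Among nicotinic subunits Chrnb3 (chr8:27368711-27399730) differed most between the highest dose and vehicle. Its beta 3 subunit is an accessory subunit known from midbrain dopamine neurons, habenula and the visual system. It was 1.23 (G1), 1.37 (G5), 1.33 (G9), 1.72 (G15) and 4.85 CPM (G18) in vehicle mice and 6.04 (G4), 5.20 (G79), 11.04 (G87) and 6.50 CPM (G90) at 500 mg/kg. It was 5.99 (G25), 3.62 (G29), 6.75 (G34), 4.53 (G40) and 10.6 CPM (G45) at 125 mg/kg and 2.22 (G49), 3.13 (G64), 1.35 (G66) and 3.52 CPM (G71) at 250 mg/kg. The 500 mg/kg mice were all above the vehicle mice, and apart from G18 so were the 125 mg/kg mice, but the 250 mg/kg mice were not. The slope was 1.14 ± 0.53 (SE, edgeR adjusted p = 0.364) and 1.04 without G4 and G9. Chrnb3 was thinly counted, with 8 (G1), 13 (G5), 12 (G9), 13 (G15) and 34 counts (G18) in the vehicle mice. The dopamine neuron markers given above for Gabrq summed to 445 CPM in G4 and 120 to 194 CPM in the other 500 mg/kg mice. In the vehicle mice, among which G18 had the highest sum, they summed to 34.7 to 165 CPM. They summed to 32.1 to 116 CPM at 125 mg/kg, where Chrnb3 ran from 3.62 to 10.6 CPM, and to 64.8 to 120 CPM at 250 mg/kg. Medial habenula markers had their highest mean log2(CPM + 1) in G45 (4.70), G34 (4.31) and G25 (3.36), against 2.04 to 3.23 in the other mice. The part of either set of markers in the Chrnb3 levels was not tested.

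Chrna7 (chr7:63098692-63212526), whose receptors admit much calcium, was 15.4 (G1), 11.5 (G5), 6.87 (G9), 12.8 (G15) and 14.4 CPM (G18) in vehicle mice and 17.99 (G4), 16.6 (G79), 16.7 (G87) and 15.2 CPM (G90) at 500 mg/kg. The ranges overlapped through G1 and G90. At 125 mg/kg it was 15.2 (G25), 12.5 (G29), 9.96 (G34), 15.5 (G40) and 10.8 CPM (G45), and at 250 mg/kg 9.37 (G49), 16.9 (G64), 12.8 (G66) and 14.6 CPM (G71). The slope was 0.45 ± 0.19 (SE, edgeR adjusted p = 0.331) and 0.28 ± 0.19 without G4 and G9.

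Chrna3, Chrnb4 and Chrna5 lie in 1 cluster on chromosome 9, and receptors of alpha 3 and beta 4 are characteristic of the medial habenula. Chrna3 (chr9:55010117-55026562) was 1.08 (G1), 1.68 (G5), 6.21 (G9), 1.85 (G15) and 1.71 CPM (G18) in vehicle mice, 7.83 (G25), 0.74 (G29), 9.64 (G34), 1.61 (G40) and 13.2 CPM (G45) at 125 mg/kg, 5.67 (G49), 1.69 (G64), 1.48 (G66) and 3.66 CPM (G71) at 250 mg/kg, and 2.96 (G4), 3.85 (G79), 6.31 (G87) and 3.69 CPM (G90) at 500 mg/kg. Chrnb4 (chr9:55028154-55048953) was 0.62, 0.53, 3.21, 0.40 and 2.28 CPM in the same vehicle mice, 3.34, 0.84, 6.75, 0 and 7.88 CPM at 125 mg/kg, 1.48, 0.72, 1.35 and 1.27 CPM at 250 mg/kg, and 1.67, 1.68, 2.89 and 0.64 CPM at 500 mg/kg. Both genes were highest in G45 and G34, and G25 came next in each. The slopes were 0.15 ± 0.73 for Chrna3 (SE, edgeR adjusted p = 0.956) and -0.40 ± 0.90 for Chrnb4 (edgeR adjusted p = 0.887). Without G4 and G9 they were 0.52 and -0.26.

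The 5 medial habenula markers, 4 of which were tested, had their highest mean log2(CPM + 1) in G45 (4.70), G34 (4.31) and G25 (3.36), against 2.04 to 3.23 in the other 15 mice. Of the defining markers, Pou4f1 had no count in 3 mice and Tac2 in 4. The summed level of the markers was 46.1 to 179 CPM in vehicle mice. It was 71.2 to 191, 64.4 to 104 and 33.5 to 98.7 CPM in the groups of rising dose. By summed level G34 was highest, and vehicle mouse G5 (179.3 CPM) lay above G45 (172.5 CPM). G40 (126.0 CPM) and vehicle mouse G15 (110.8 CPM) lay above G25 (101.4 CPM) in the sum of these markers. The part of the habenula markers in the levels of Chrna3 and Chrnb4 was not tested. Chrnb4 reached 10 counts in 9 of 18 mice and had no count in G40, which at this depth does not show that it is absent. Chrna3 and Chrna5 overlap by 1304 bases on opposite strands. Chrna5 itself had group means between 2.68 and 4.33 CPM, and Chrna2 between 1.32 and 3.10 CPM. Chrna4 had group means between 53.0 and 92.1 CPM and Chrnb2 between 104 and 122 CPM. The slopes of Chrna5, Chrna2, Chrna4 and Chrnb2 were 0.21, 1.21, 0.56 and 0.20. Without G4 and G9 they were -0.50, 0.14, 0.14 and 0.24.

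**Figure D3:**
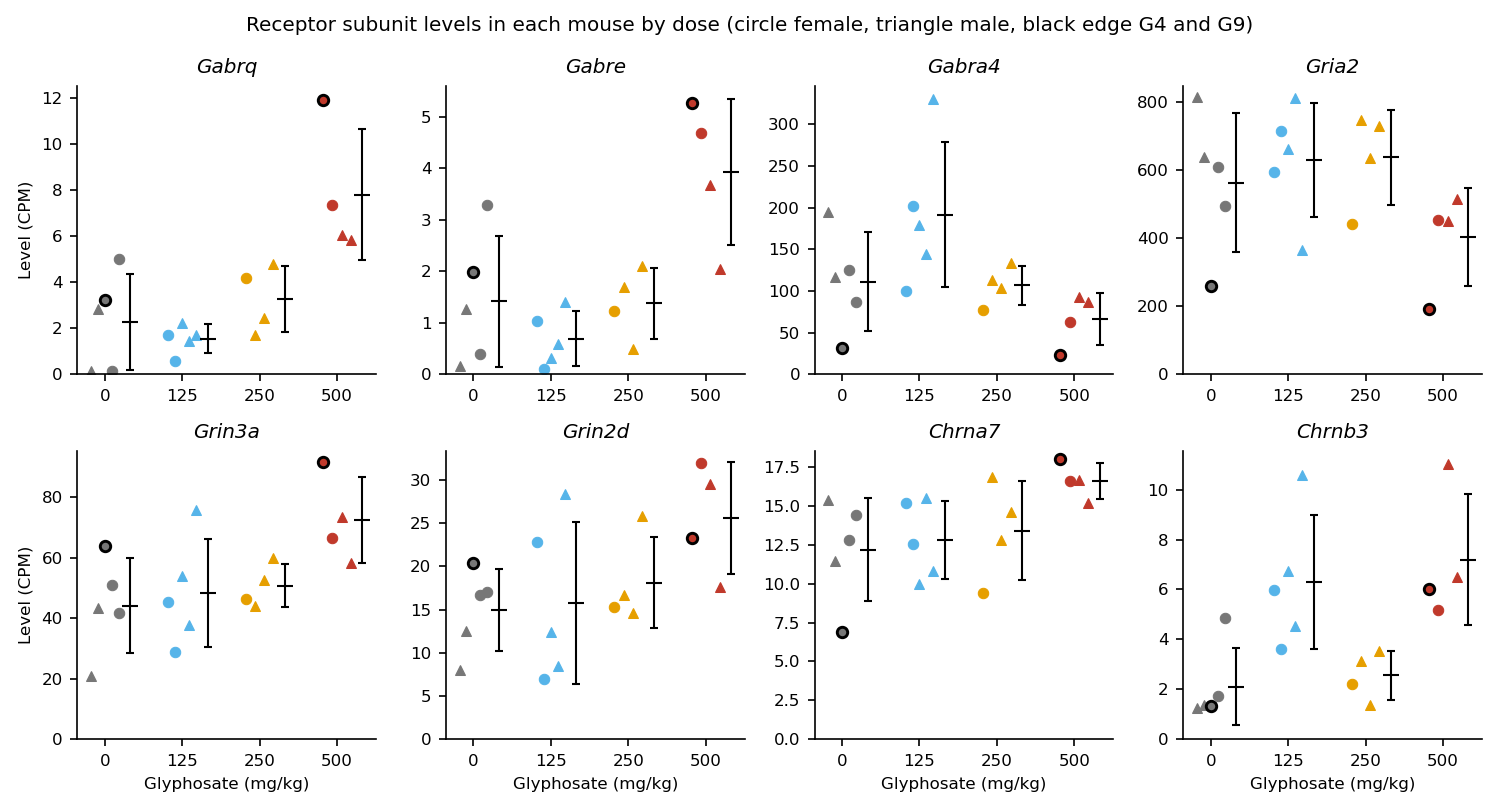
Levels (CPM) of 8 receptor subunits in each mouse against glyphosate dose (mg/kg), and beside them the group mean with its SD. Gabrq in the 4 mice at 500 mg/kg (5.86 to 11.95) lies above all other mice, Gabre and Grin2d overlap with vehicle, and Gria2 and Gabra4 are lowest in mice G4 and G9 (black edges).

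Each dose was also compared with vehicle in 1 fit of all 4 groups. At 125 mg/kg edgeR called none of the 36 subunits and 0% of all genes (DESeq2 called none of the subunits and 0.233% of genes), and 3 subunits had an unadjusted p under 0.05, where 11.2% of all genes did. These were Chrnb3 (log2 change 1.52 ± 0.42, SE), Chrna4 (0.68 ± 0.31) and Gria4 (-0.75 ± 0.20). Gria4, an AMPA subunit of cerebellum and interneurons, was 202 ± 29.4 CPM (SD, n = 5) in vehicle mice and 115 ± 21.6 CPM (n = 5) at 125 mg/kg, the group in which the 7 granule cell markers summed to 127 to 876 CPM against 936 to 3059 CPM in vehicle mice. Their part in this difference was not tested. At 250 mg/kg edgeR called 0% of all genes, DESeq2 none, and 1 subunit, Grik4, had an unadjusted p under 0.05 (0.64 ± 0.29), where 3.76% of all genes did.

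At 500 mg/kg edgeR called none of the subunits, with 0.0189% of all genes called, and 9 of 36 had an unadjusted p under 0.05 against 11.6% of all genes. DESeq2 called 1 subunit, Chrnb3, among 1.05% of genes. Its log2 change was 1.74 ± 0.43 (SE), with an adjusted p of 0.153 in edgeR and 0.0179 in DESeq2, and the adjusted p ran from 0.0179 to 0.426 over the alternatives. Without vehicle mouse G18 edgeR called it as well, with a log2 change of 2.30 ± 0.36 and an adjusted p of 0.0454, whereas without G4 and G9 the edgeR adjusted p was 0.412. The 500 mg/kg mice lay wholly above the vehicle mice for 3 of 36 subunits, Gabrq, Chrnb3 and Chrnb2, where 2.32% of all genes did so. No subunit lay wholly below, where 0.933% of all genes did.

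When any difference among the 4 groups was asked for, edgeR called none of the subunits (0.0441% of all genes called), with 6 at an unadjusted p under 0.05, where 15% of all genes had such a p. DESeq2 called 3 of 36, Chrnb3, Gabra4 and Gabrq, among 3.4% of all genes. The DESeq2 adjusted p was 0.00288 for Chrnb3, 0.0178 for Gabra4 and 0.0449 for Gabrq, and over the alternatives the adjusted p of these genes reached 0.234, 0.368 and 0.347. No slope differed between the sexes by edgeR (0% of all genes called, 1 subunit at an unadjusted p under 0.05 against 1.65% of all genes) or by DESeq2.

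Ratios of subunits within a receptor class were compared between 500 mg/kg and vehicle by an exact two-sided permutation test. Its smallest possible p with 5 and 4 mice is 0.0159. The log2 ratio of Grin2a to Grin2b, which rises as forebrain NMDA receptors mature, was -0.72 ± 0.68 (SD, n = 5) in vehicle mice and -0.80 ± 0.30 (n = 4) at 500 mg/kg (exact permutation p = 0.984, adjusted over 3 ratios 0.984). G9 alone among vehicle mice had more Grin2a than Grin2b, at 0.48. Gria1 to Gria2 was -0.31 ± 0.53 in vehicle mice and -0.14 ± 0.22 at 500 mg/kg (exact permutation p = 0.587, adjusted 0.881). Chrna7 to Chrna4 was -2.12 ± 0.24 in vehicle mice and -2.40 ± 0.48 at 500 mg/kg (exact permutation p = 0.270, adjusted 0.810). Without G4 and G9 the differences were 0.13 for Grin2a to Grin2b, 0.38 for Gria1 to Gria2 and -0.20 for Chrna7 to Chrna4. Leaving out each mouse in turn moved the Gria1 to Gria2 difference between 0.027 and 0.38 and the Chrna7 to Chrna4 difference between -0.50 and -0.15. These p-values do not show that the ratios were equal.

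Spread between mice within a group was wide for many of these genes. The SD of log2(CPM + 0.5) within groups had a median of 0.52 over the 36 subunits and 0.30 over all tested genes. It was smallest for Grin1 (0.25), Gabrb1 (0.27) and Gabrb2 (0.27). It was largest for Gabra6 (2.42), Chrnb4 (1.10), Chrna3 (1.005), Grin2b (0.94), Gabrd (0.91) and Gabrq (0.91). Mouse G4 held the lowest level of 8 subunits and the highest of 6, and mouse G9 the lowest of 9.

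**Figure D4:**
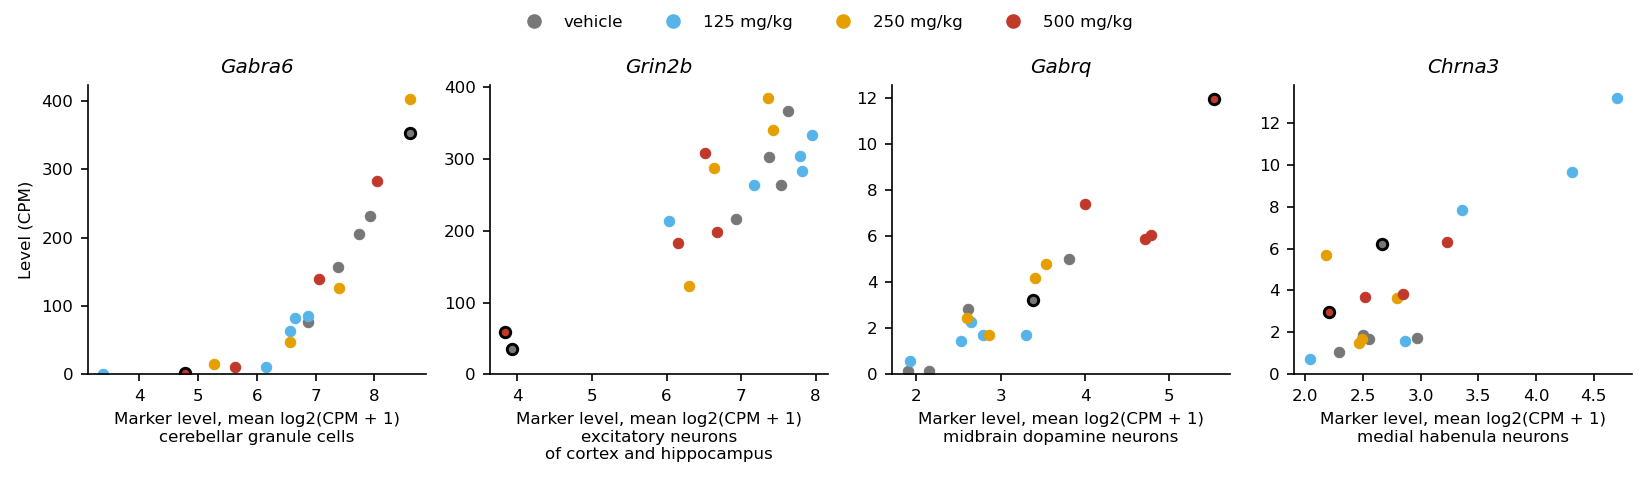
Level (CPM) of Gabra6, Grin2b, Gabrq and Chrna3 in each of the 18 mice against the mean log2(CPM + 1) of markers of cerebellar granule cells, excitatory neurons, midbrain dopamine neurons and medial habenula neurons, with G4 and G9 edged in black. G45 has the most of both Chrna3 and the habenula markers, G4 the most of both Gabrq and the dopamine neuron markers, and G9 and G4 have the least Grin2b (34.9 and 58.3 CPM).

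Gabra2 followed the number in the mouse tag of the labels rather than dose. It encodes an alpha subunit of forebrain synapses (chr5:70958392-71095849) and was chosen for description after its values were seen. It was 49.9 and 73.3 CPM in the vehicle mice of tag number 41 (G1, G5), 47.9 and 51.8 CPM in the 500 mg/kg mice of number 44 (G4, G79), and 44.4, 57.5, 59.3 and 74.4 CPM in the 250 mg/kg mice of number 45 (G49, G64, G66, G71). It was 19.9 and 21.3 CPM in the 125 mg/kg mice of number 42 (G25, G29). Number 43 held vehicle mouse G18 at 15.3 CPM and the 125 mg/kg mice G34, G40 and G45 at 29.2, 25.6 and 13.9 CPM. Number 46 held vehicle mice G9 and G15 at 10.97 and 16.5 CPM and the 500 mg/kg mice G87 and G90 at 24.0 and 18.1 CPM.

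Every mouse of numbers 41, 44 and 45 thus had more Gabra2 than any mouse of numbers 42, 43 and 46, and the vehicle and 500 mg/kg groups each held high and low mice. Within number 46, the only number with both vehicle and 500 mg/kg mice, the dosed mice were slightly the higher. There the vehicle mice (G9, G15) were female and the dosed mice (G87, G90) male, so dose and sex cannot be told apart. G9 is also a mouse that stood apart from the rest. With the 6 tag numbers as a factor beside dose and sex, a test added after the data were seen, edgeR called 1 of 36 subunits, Gabra2 (adjusted p = 0.00797), among 0.0693% of all genes. DESeq2 called 3 (Gabra2, Chrnb3 and Gria4) among 0.505% of genes. The edgeR call of Gabra2 was lost without the 500 mg/kg mouse G90 (adjusted p = 0.0585), and over the alternatives the adjusted p of Gabra2 ran from 1.86e-14 to 0.0585. On dose, the slope of Gabra2 was 0.65 ± 0.50 (SE, edgeR adjusted p = 0.609), and 0.28 without G4 and G9. All 250 mg/kg mice bore number 45, so that dose and this number cannot be told apart.

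Other genes that were looked at by tag number, also after the data were seen, lie on other chromosomes. Wdfy1, on chromosome 1, was at 57.8 to 65.1 CPM in number 41, 66.2 to 95.6 CPM in number 44 and 51.8 to 73.7 CPM in number 45. It was at 15.4 to 17.6 CPM in number 42, 14.1 to 21.9 CPM in number 43 and 14.5 to 21.7 CPM in number 46 (edgeR adjusted p by tag number 0.000199). Nnt, a mitochondrial transhydrogenase on chromosome 13, had means of 20.1, 21.1 and 19.5 CPM in numbers 41, 44 and 45, and of 11.8, 11.1 and 8.42 CPM in numbers 42, 43 and 46 (edgeR adjusted p = 0.0244). Ide, which encodes insulin-degrading enzyme on chromosome 19, ran the other way, with means of 40.3, 39.1 and 38.5 CPM against 65.9, 76.6 and 63.3 CPM, and did not pass the threshold (edgeR adjusted p = 0.141). Gabra2 and Nnt are known to differ between substrains of C57BL/6. The labels give no substrain and no genotype beyond wild type. What the tag number stands for is not given in the sources used here. The part of substrain in the levels of Gabra2 was not tested.

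**Figure D5:**
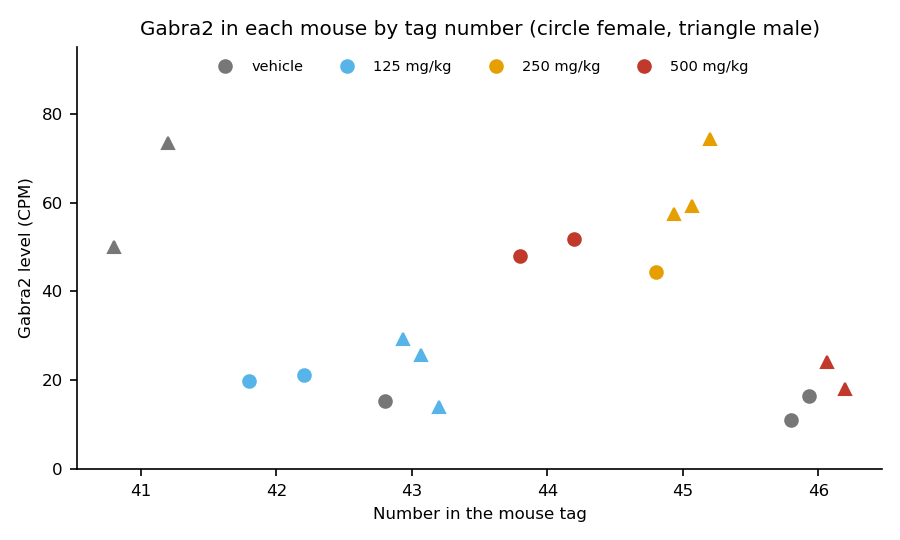
Level (CPM) of Gabra2 in each of the 18 mice by the number in the mouse tag, coloured by dose group, with circles for females and triangles for males. Mice of numbers 41, 44 and 45 lie at 44.4 to 74.4 CPM and mice of numbers 42, 43 and 46 at 10.97 to 29.2 CPM.

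Receptors also depend on partner proteins that assemble, anchor or tune them. Of 34 such genes none was called by edgeR on dose, and 7 had an unadjusted p under 0.05, 2 with positive and 5 with negative slopes, beside the share over all genes given above. The median slope of these genes was -0.21. Of the 16 AMPA receptor partners 11 had negative slopes, and the smallest p was that of Frrs1l, an assembly factor (slope -0.45 ± 0.18, SE). The scaffold gene Grip2 was next, with a slope of 0.50 ± 0.19, and is named after its value was seen. All 4 scaffold genes of the NMDA receptor had negative slopes, among them Dlg3 (-0.39 ± 0.22), as did both kainate partners, with -0.26 ± 0.22 for Neto2. Of the 8 GABA-A partners 4 had positive slopes, and Iqsec3, a protein of inhibitory synapses, had a slope of 0.46 ± 0.16. Lynx1, a membrane-anchored brake on nicotinic receptors, had a slope of 0.26 ± 0.14. The markers of excitatory neurons had 8 of 8 negative slopes with a median of -1.38, and their part in the slopes of the partner genes was not tested. All slopes in this paragraph are from all 18 mice and are not given without G4 and G9. The excitatory marker level was lowest in 500 mg/kg mouse G4 (3.84) and next lowest in vehicle mouse G9 (3.92).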

How the data were processed

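RNA was isolated from half-brains, and stranded total RNA libraries depleted of ribosomal RNA were sequenced by the authors as paired-end reads. Per the labels and the submitters' processing notes, reads were aligned to GRCm38 with STAR 2.7.5b, checked with MultiQC 1.12 and counted with featureCounts. What was deposited are unnormalized read counts for 18 mice and 27179 genes, identified by Entrez number, and the authors tested dose with DESeq2 1.34.0. Symbols and positions were taken from RefSeq (GRCm38.p6), which held 25275 of the numbers, and exon lengths from GENCODE.

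Counts were analysed in R 4.3.3 with edgeR 4.0.16 (quasi-likelihood F test, TMM normalization, filterByExpr with a minimum count of 10, biological coefficient of variation 25.8%). Dose was divided by 500 mg/kg, sex entered as a covariate, and Benjamini-Hochberg adjustment ran over all 15863 genes, with a threshold of 0.05. DESeq2 1.42.0 and limma 3.58.1 (voom) were alternatives. The fits were also run on simulated counts. Those counts held no outlying mice, regional tissue differences or tag number effect, so that run does not cover such features. Levels are CPM scaled by TMM. Subunit ratios used counts plus 0.5. The replicates are separate mice, numbered in accession order, which pairs no samples.

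Values in every mouse are given for the 2 subunits of each class with the smallest p on dose, for subunits called by edgeR or DESeq2 on dose or at 500 mg/kg, and for Gabra6, Grin1, Gria2, Chrna3 and Chrnb4. Gabra2 and Gabra4 were added after their values were seen. The subunits, lists and tests were chosen with earlier results of these data known. Reads carry no molecular identifiers, and the precision of a level is the SD between mice.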

Additional observations from a re-analysis of the deposited data

Results flagged for a closer look

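Within the 4 dose groups, 144 sets of levels (36 subunits in each group) were searched for a mouse far from its group by Dixon's test, and 10 held one. Chance gives about 1 in 20 such groups. Of these, 3 were nicotinic. Chrnb3 in vehicle mouse G18 was 4.85 CPM against 1.23 to 1.72 in the other vehicle mice, Chrna3 in vehicle mouse G9 was 6.21 CPM against 1.08 to 1.85, and Chrna2 in 500 mg/kg mouse G4 was 7.32 CPM against 1.17 to 2.10. Gabrb1 stood out in 3 groups, with G34 high at 37.4 CPM (the other 125 mg/kg mice 31.4 to 32.7), G49 low at 22.7 CPM (the other 250 mg/kg mice 35.4 to 36.5) and G87 high at 45.9 CPM (the other 500 mg/kg mice 28.7 to 30.7). Gabra5 in vehicle mouse G15 was 44.0 CPM against 16.7 to 24.3, and Gabrb2 in 500 mg/kg mouse G90 was 660.2 CPM against 452 to 479. Gria4 in 125 mg/kg mouse G29, which also had the lowest granule cell marker level, was 78.1 CPM against 118 to 131. Grik4 in 500 mg/kg mouse G87 was 11.4 CPM against 7.90 to 8.21. Without G18 edgeR calls Chrnb3 at 500 mg/kg, as given above.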

How the results depend on the processing

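Of 442 slopes of the 16 named subunits under 28 alternatives, 427 kept their direction and their side of the threshold. Subunits rising with dose numbered 0 in edgeR and 1 in DESeq2 and in limma-voom. Those higher at 500 mg/kg numbered 0, with 1 in DESeq2 and 0 to 1 when each mouse was left out in turn. Those differing among groups numbered 0, with 3 in DESeq2 and 0 to 1 when leaving out each mouse, and those differing by tag number 1, with 3 in DESeq2 and 0 to 1 when leaving out each mouse. Among the 16 named subunits, slopes changed sign without G4 and G9 for Gabra6 (0.015). With the tag number as a block they did so for Gabra6 (0.43), Grin1 (0.025), Grin3a (-0.055) and Grik1 (-0.067). With the excitatory marker level as a covariate they did so for Gria3 (0.049), Grin1 (0.0087), Grik5 (0.067) and Chrna3 (-0.086). In limma-voom the slope of Chrnb4 changed sign (0.36). Leaving out each mouse, the slope of Chrna3 ran from -0.078 to 0.51, and the difference in the Grin2a to Grin2b ratio (-0.08) from -0.18 to 0.22, with 0.13 without G4 and G9. The cause was not tested. Over all genes, edgeR calls on dose numbered 46 and, without G4 and G9, 2, and the subunits at an unadjusted p under 0.05 numbered 10 and 7, beside 13.2% and 11.7% of all genes. No paired analysis was possible because the replicate numbers are in accession order. Depth limits Gabre, Gabrq, Chrna2 and Chrnb4, which had under 10 counts in several mice.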
